A study of Mus musculus with 6 samples.

Results

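The genes described here are the 10 members of the mammalian circadian clock and of its heme-binding Rev-erb branch that were named for this comparison: Nr1d1, Nr1d2, Arntl (also called Bmal1), Clock, Per1, Per2, Per3, Cry1, Cry2 and Dbp. They were found by matching the Entrez gene identifiers in the deposited tables to mouse symbols, and all 10 were listed among the 18753 annotated genes seen in any library. The libraries came from primary oligodendrocyte progenitor cells (OPCs), the dividing cells that give rise to myelinating oligodendrocytes, of wild-type C57BL/6 mice, with an age given as postnatal day 1. The cells were taken from cortex with magnetic beads against the PDGFRα receptor and grown for 3 days. Cells of 3 libraries received 50 µM hemin for 12 h, and cells of the other 3 received the vehicle, 0.25% DMSO, for the same time. Hemin is the oxidised form of heme that is freed when red cells break down, and the series concerns injury of white matter after hemorrhagic stroke.

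In the clock, the proteins CLOCK and BMAL1 pair on E-box sequences and switch on the Per, Cry and Nr1d genes as well as outputs such as Dbp. PER and CRY proteins then return to the nucleus and inhibit CLOCK and BMAL1, while the nuclear receptors REV-ERBα (gene Nr1d1) and REV-ERBβ (gene Nr1d2) repress Arntl, Clock and Nfil3 through RORE sequences, where the ROR receptors act as activators. Heme is the ligand of both Rev-erb receptors and favours their binding of the corepressor NCoR with the histone deacetylase HDAC3. Outside the clock, Per1 is also an immediate target of cyclic AMP, glucocorticoid and growth factor signals. In mice, loss of Bmal1 from the oligodendrocyte lineage is known to disturb progenitor numbers and myelination.

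Some facts of the libraries bear on all values below. Summed expected counts lay between 6463460 and 6523639 in the hemin libraries and between 6339966 and 6390691 in the vehicle libraries. Hmox1, the heme oxygenase that is the classic target of heme, stood at 3044.77, 2298.42 and 2455.51 FPKM with hemin against 19.84, 15.80 and 28.73 FPKM with vehicle. The summed level of 6 OPC markers was 262 to 404 FPKM with hemin against 1003 to 1211 FPKM with vehicle, and all 6 markers fell, though each was present in every library. The 5 astrocyte markers summed to 307 to 385 FPKM with hemin against 342 to 401 FPKM with vehicle. Such a sum does not measure a share of cells or of RNA. Most of it was Slc1a3, at 199.41, 199.50 and 227.37 FPKM with hemin against 270.44, 240.50 and 255.68 FPKM with vehicle. Slc1a3 was lower in each hemin library than in any vehicle library, and did not pass the test described below. Among the 5 markers Gja1 rose and Aqp4 fell, and the groups overlapped for Gfap and Aldh1l1. Summed neuronal markers reached 65.4 to 96.9 FPKM with hemin against 134 to 162 FPKM with vehicle, and 7 microglial markers 15.2 to 16.3 FPKM against 6.11 to 11.7 FPKM. The 4 endothelial markers summed to 4.31 to 5.25 FPKM with hemin against 1.12 to 1.69 FPKM with vehicle. Markers within a sum did not all move alike. Pecam1 and Kdr rose, whereas Flt1 overlapped between groups. Snap25 was the 1 of 6 neuronal markers with a higher mean with hemin, at 28.19 against 24.57 FPKM. None of the 4 microglial markers tested was called by the test described below. The defining markers P2ry12 and Tmem119 (microglia), Cldn5 (endothelium) and Mag and Mobp (oligodendrocytes) were listed at 0 in some libraries, and Mog was listed in no library. In such bulk libraries, fewer cells of a type and less RNA per cell cannot be told apart, and the part that these shifts have in the results on clock genes was not tested. Neither a time of day nor a synchronising step is given in the labels, and with 12 h as the sole time a shift of phase and a change of level cannot be told apart.

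Of the 10 clock and Rev-erb genes, Per1, Nr1d1 and Arntl were higher in hemin-treated OPCs, and none was lower. Among these 3, Per1 showed the widest difference, at 3.71-fold, followed by Nr1d1 at 2.00-fold and Arntl at 1.34-fold. The other 7, namely Nr1d2, Clock, Per2, Per3, Cry1, Cry2 and Dbp, did not pass the test. Of these, Clock at 1.51-fold, Cry2 at 1.46-fold and Cry1 at 1.355-fold had wider differences than Arntl. Over the 13 alternative settings described below, Per1 kept its call in all, Nr1d1 lost it in 1 and Arntl lost it in 10. A gene was called at an adjusted p below 0.05 in edgeR's quasi-likelihood test, two-sided and adjusted over the 12783 genes tested, among them all 10 members. Over all these genes 31.9% were called, 16.2% as higher and 15.7% as lower, so 3 of 10 called is near the background. The median log2 fold change of the 10 members was 0.43, against 0.00 over all genes tested. In 5 of the 10 every hemin library lay above every vehicle library, and in 0 below, where over all genes 48.9% did not overlap, with 24.1% above and 24.8% below. Under library totals alone, 1713 of the 4295 genes called were higher and 2582 lower, against 2070 higher and 2006 lower with TMM scaling.

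**Figure D1:**
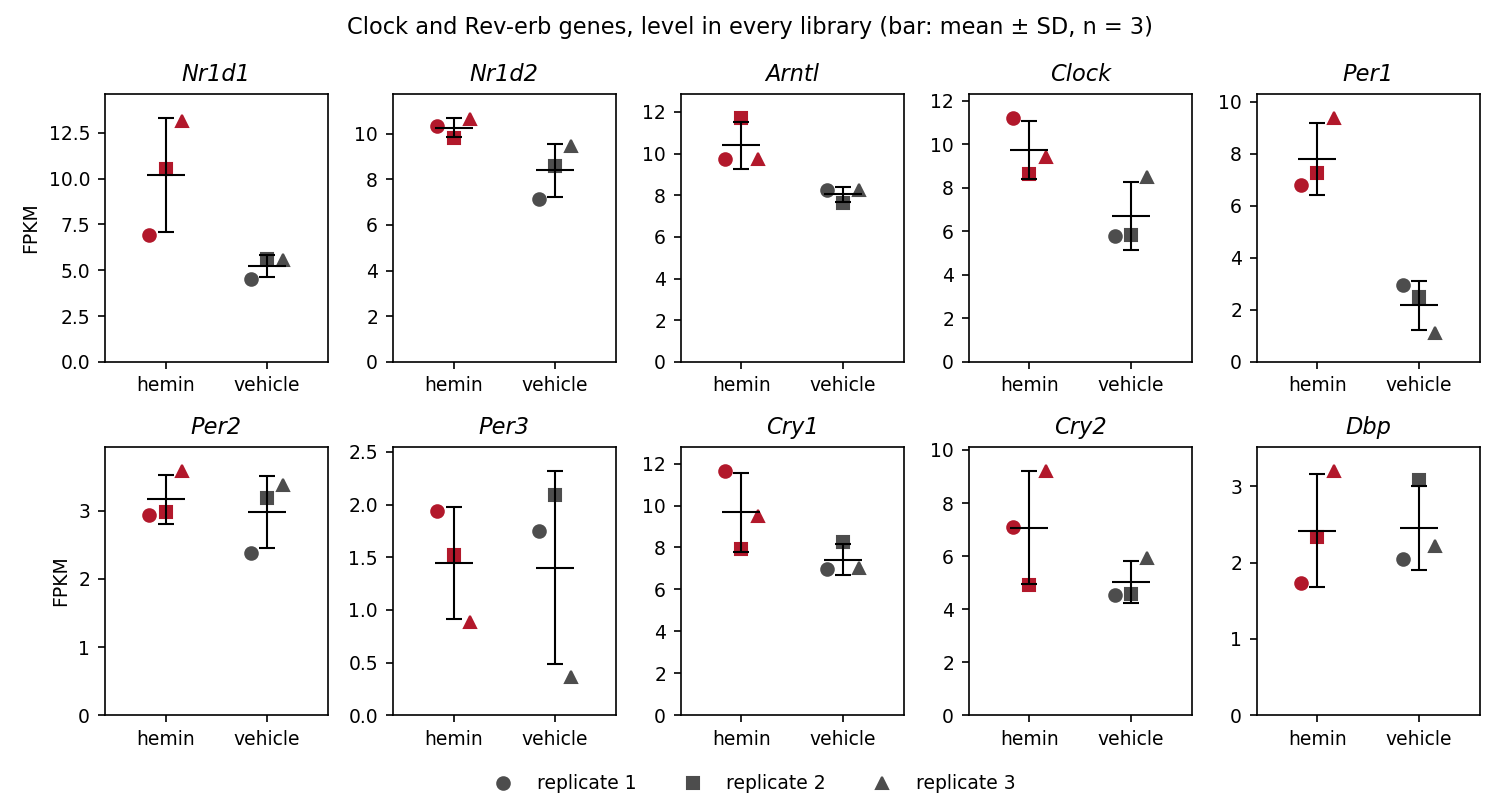
Level of each of the 10 clock and Rev-erb genes in FPKM (linear axes from 0, scaled per gene) in the 3 hemin and the 3 vehicle libraries. Symbols mark the replicate, and bars the mean ± SD (n = 3). The groups are apart for Nr1d1, Nr1d2, Arntl, Clock and Per1 and overlap for Per2, Per3, Cry1, Cry2 and Dbp.

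The plot of levels by library shows how far the groups stood apart for each gene. Levels in FPKM are scaled by transcript length and so can be set side by side between genes. With hemin, the order of mean levels was Arntl at 10.4, Nr1d2 at 10.3, Nr1d1 at 10.2, Clock at 9.75, Cry1 at 9.68, Per1 at 7.81 and Cry2 at 7.07 FPKM, with Per2 at 3.17, Dbp at 2.42 and Per3 at 1.45 FPKM below them. The single pair of neighbours in that order whose libraries did not overlap was Cry2 and Per2. With vehicle, the order was Nr1d2 at 8.39, Arntl at 8.04, Cry1 at 7.42, Clock at 6.70, Nr1d1 at 5.24, Cry2 at 5.01, Per2 at 2.98, Dbp at 2.45, Per1 at 2.18 and Per3 at 1.40 FPKM. There the neighbours Clock and Nr1d1, and Cry2 and Per2, did not overlap, and the other neighbours did. Per1 thus ranked 6 of the 10 with hemin and 9 with vehicle.

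Nr1d1 (gene 217166), which encodes the heme-binding repressor REV-ERBα, stood at 6.93, 10.55 and 13.12 FPKM in hemin libraries 1, 2 and 3, against 4.55, 5.61 and 5.56 FPKM in vehicle libraries 1, 2 and 3. All hemin libraries were above all vehicle libraries, and the hemin libraries were spread the more widely of the groups. The mean was 10.2 ± 3.11 FPKM with hemin and 5.24 ± 0.598 FPKM with vehicle (SD, n = 3 each). From counts with TMM scaling, the log2 fold change was 1.00 ± 0.23 (SE, edgeR adjusted p = 0.0141). Among all genes tested, 8.82% had a larger log2 fold change. These values rest on 746 summed counts with hemin and 387 with vehicle, all from 1 annotated transcript. Without vehicle replicate 1 the gene kept a log2 fold change of 0.92 and lost the call (edgeR adjusted p = 0.0576). Nr1d1 shares 263 exon bases in GENCODE vM21 with Thra, the thyroid hormone receptor α gene on the other strand, and no label states if reads were counted by strand. Thra stood at 32.65, 49.64 and 57.21 FPKM with hemin against 56.33, 52.52 and 50.51 FPKM with vehicle, so Nr1d1 counts are uncertain by the reads the 2 genes may share.

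Nr1d2 (gene 353187) encodes the sister receptor REV-ERBβ. It stood at 10.32, 9.82 and 10.66 FPKM with hemin against 7.13, 8.57 and 9.47 FPKM with vehicle. The groups did not overlap, though the lowest hemin library and the highest vehicle library were close. The mean was 10.3 ± 0.423 FPKM with hemin and 8.39 ± 1.18 FPKM with vehicle (SD, n = 3 each). Its log2 fold change of 0.34 ± 0.14 did not pass the test (SE, edgeR adjusted p = 0.0924). Within each library the log2 ratio of Nr1d1 to Nr1d2, on FPKM + 0.1, was -0.57, 0.10 and 0.30 with hemin against -0.64, -0.60 and -0.76 with vehicle, a difference of 0.61.

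The window around the start of Nr1d1 is shown because it carries 1 clock motif, and because Nr1d1 is one of the genes that were higher. Windows run from 250 bases before to 50 bases after each annotated start, are taken from RefSeq on GRCm38.p6, and are printed 5′ to 3′ on the gene's own strand, with matched motifs in capitals. Nr1d1 is on the minus strand at chr11:98775328-98775627, and an E-prime box (CACGTT, here read on the other strand) lies 28 bases before the start.
Nr1d1: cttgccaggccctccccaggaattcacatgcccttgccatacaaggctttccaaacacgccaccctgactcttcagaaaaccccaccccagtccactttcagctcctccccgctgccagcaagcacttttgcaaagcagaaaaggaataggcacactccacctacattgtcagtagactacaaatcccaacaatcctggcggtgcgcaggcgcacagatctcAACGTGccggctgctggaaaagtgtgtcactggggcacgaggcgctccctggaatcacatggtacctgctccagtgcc
The Nr1d2 window held none of the 5 motifs searched.

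Arntl (gene 11865), which encodes BMAL1, the obligate partner of CLOCK, stood at 9.75, 11.71 and 9.73 FPKM with hemin against 8.25, 7.62 and 8.26 FPKM with vehicle. Each hemin library was above each vehicle library, and hemin library 2 stood highest. The mean was 10.4 ± 1.14 FPKM with hemin and 8.04 ± 0.367 FPKM with vehicle (SD, n = 3 each), with a log2 fold change of 0.42 ± 0.13 (SE, edgeR adjusted p = 0.0465). This call was lost in 10 of 13 alternative settings, among them leaving out any library but hemin replicate 3, with adjusted p-values from 0.042 to 0.152 over the 13 and a log2 fold change that stayed between 0.33 and 0.48. Without hemin replicate 1 the edgeR adjusted p was 0.0512, without hemin replicate 2 it was 0.144, and without vehicle replicates 1, 2 and 3 it was 0.116, 0.152 and 0.0776.

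Clock (gene 12753), the histone acetyltransferase that pairs with BMAL1, stood at 11.21, 8.61 and 9.43 FPKM with hemin against 5.78, 5.81 and 8.51 FPKM with vehicle. The groups did not overlap, and vehicle library 3 came close to hemin library 2. The mean was 9.75 ± 1.33 FPKM with hemin and 6.70 ± 1.57 FPKM with vehicle (SD, n = 3 each). A log2 fold change of 0.59 ± 0.19 missed the threshold (SE, edgeR adjusted p = 0.0504). DESeq2 called it (adjusted p = 0.0161), and so did edgeR without vehicle replicate 3 (adjusted p = 0.0132). Its counts were divided by the authors' estimate over 3 transcripts, of which none held more than 42.5% of the hemin or 47.9% of the vehicle counts.

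Arntl matched 2 windows with neighbouring starts. The second, on the plus strand at chr7:113207261-113207560, is shown because it holds a RORE (AAN followed directly by TAGGTCA), the element bound by both Rev-erb and ROR receptors, 28 bases after the start.
Arntl: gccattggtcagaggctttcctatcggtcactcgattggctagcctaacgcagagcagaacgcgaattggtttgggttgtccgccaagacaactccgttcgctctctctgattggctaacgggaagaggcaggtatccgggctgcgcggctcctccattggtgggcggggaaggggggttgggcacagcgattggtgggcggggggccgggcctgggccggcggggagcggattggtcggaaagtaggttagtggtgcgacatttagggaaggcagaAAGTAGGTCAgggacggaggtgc
The RORE was in 0.219% of the 32851 mouse windows of this kind, the scarcest of the motifs searched. None of the 3 Clock windows held a motif. A match in the letters is a description and not a shown binding site.

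Per1 (gene 18626), an inhibitor of CLOCK and BMAL1 and the member with the widest difference, stood at 6.79, 7.25 and 9.38 FPKM with hemin against 2.94, 2.48 and 1.13 FPKM with vehicle. The lowest hemin library was well above the highest vehicle library. The mean was 7.81 ± 1.38 FPKM with hemin and 2.18 ± 0.941 FPKM with vehicle (SD, n = 3 each), a log2 fold change of 1.89 ± 0.32 (SE, edgeR adjusted p = 0.00466), and 3.25% of all genes tested had a larger one. The call held in all 13 alternative settings, with log2 fold changes between 1.5 and 2.18.

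The 2 annotated transcripts of Per1, of 4663 and 4648 bases, did not take the same shares of its counts in the groups. By the authors' estimate the longer one held 282.9, 302.7 and 387.93 expected counts with hemin against 55.5, 0 and 48.12 with vehicle. The shorter one held 6.43, 0 and 0 expected counts with hemin against 67.78, 104.17 and 0 with vehicle. Over the libraries of a group, the shorter transcript took 0.656% of Per1 counts with hemin and 62.4% with vehicle. The vehicle libraries differed widely among themselves, from 0 to 100% of the shorter one, and the transcripts are nearly equal in length, so the split of these few reads is an uncertain estimate and was not tested.

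Per2 (gene 18627), the PER protein on which the rhythm depends most in mice, stood at 2.94, 2.98 and 3.58 FPKM with hemin against 2.38, 3.19 and 3.37 FPKM with vehicle. The groups overlapped. The mean was 3.17 ± 0.359 FPKM with hemin and 2.98 ± 0.527 FPKM with vehicle (SD, n = 3 each), and the log2 fold change was 0.13 ± 0.18 (SE, edgeR adjusted p = 0.6). Per3 (gene 18628), which is dispensable for the core rhythm in mice, stood at 1.94, 1.52 and 0.88 FPKM with hemin against 1.75, 2.09 and 0.36 FPKM with vehicle. Library 3 was the lowest of both groups, and the groups overlapped. Its mean was 1.45 ± 0.534 FPKM with hemin and 1.40 ± 0.917 FPKM with vehicle (SD, n = 3 each), and its log2 fold change of 0.12 ± 0.58 had a standard error several times its size (edgeR adjusted p = 0.901). The sign turned to -0.18 without hemin replicate 1 and to -0.32 without vehicle replicate 3.

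The log2 ratio of Per1 to Per2 within a library was 1.18, 1.26 and 1.37 with hemin against 0.29, -0.35 and -1.50 with vehicle. All hemin libraries thus had more Per1 than Per2 per length, as did vehicle library 1, and the other vehicle libraries had less. The ratio averaged 1.27 ± 0.09 with hemin and -0.52 ± 0.91 with vehicle (SD, n = 3 each), a difference of 1.79 with an exact permutation p = 0.1 and an adjusted p = 0.15 over 6 ratios. With 3 libraries against 3, that test cannot go below 0.10.

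Windows of Per1 and Per3 are shown together because both carry D-boxes (TTATGNAA), the element bound by DBP, TEF and HLF as activators and by NFIL3 as a repressor, while the difference in level was seen for Per1. The Per1 window, on the plus strand at chr11:69098699-69098998, holds an E-box (CACGTG) 166 bases and a D-box 24 bases before the start. The Per3 window, on the minus strand at chr4:151044616-151044915, holds D-boxes 205 and 158 bases before the start.
Per1: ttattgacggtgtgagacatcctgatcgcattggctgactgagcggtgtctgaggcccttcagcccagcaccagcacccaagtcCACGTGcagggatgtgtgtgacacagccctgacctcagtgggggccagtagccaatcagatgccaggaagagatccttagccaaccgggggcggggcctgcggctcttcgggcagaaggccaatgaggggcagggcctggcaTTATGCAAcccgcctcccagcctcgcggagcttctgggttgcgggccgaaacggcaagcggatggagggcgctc
Per3: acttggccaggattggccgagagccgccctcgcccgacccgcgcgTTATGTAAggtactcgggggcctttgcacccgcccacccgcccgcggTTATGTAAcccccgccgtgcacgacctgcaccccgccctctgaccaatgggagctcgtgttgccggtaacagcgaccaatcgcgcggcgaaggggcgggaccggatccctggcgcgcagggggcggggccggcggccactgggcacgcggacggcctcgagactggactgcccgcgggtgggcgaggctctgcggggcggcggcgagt
Per1 has a second annotated window without a motif, and Per2 is not in the table of windows.

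Cry1 (gene 12952), the strongest repressor of CLOCK and BMAL1 among the members, stood at 11.64, 7.91 and 9.48 FPKM with hemin against 6.98, 8.27 and 7.02 FPKM with vehicle. The groups overlapped through hemin library 2. The mean was 9.68 ± 1.87 FPKM with hemin and 7.42 ± 0.734 FPKM with vehicle (SD, n = 3 each), with a log2 fold change of 0.44 ± 0.18 (SE, edgeR adjusted p = 0.108). Cry2 (gene 12953), its paralog, stood at 7.09, 4.92 and 9.19 FPKM with hemin against 4.54, 4.56 and 5.92 FPKM with vehicle. Hemin library 2 was again the lowest of its group and fell within the vehicle range. The mean of Cry2 was 7.07 ± 2.14 FPKM with hemin and 5.01 ± 0.791 FPKM with vehicle (SD, n = 3 each), with a log2 fold change of 0.54 ± 0.24 (SE, edgeR adjusted p = 0.122). Without hemin replicate 2, Cry2 was called (edgeR adjusted p = 0.0374). The log2 ratio of Cry1 to Cry2 averaged 0.48 ± 0.37 with hemin and 0.57 ± 0.30 with vehicle (SD, n = 3 each, exact permutation p = 0.7). Cry1 had an E-box 60 bases and an E-prime box 79 bases before its start, and Cry2 an E-prime box 166 bases before its start.

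Dbp (gene 13170), an activator at D-boxes and a direct output of CLOCK and BMAL1, stood at 1.73, 2.33 and 3.20 FPKM with hemin against 2.05, 3.08 and 2.22 FPKM with vehicle. The groups overlapped almost wholly. The mean was 2.42 ± 0.739 FPKM with hemin and 2.45 ± 0.552 FPKM with vehicle (SD, n = 3 each), and the log2 fold change was 0.03 ± 0.31 (SE, edgeR adjusted p = 0.951). It rested on 103 summed counts with hemin and 105 with vehicle, the fewest of the 10 members, and its sign turned in 7 of 13 alternative settings. Dbp shares 539 exon bases with Sphk2, a sphingosine kinase gene on the other strand that stood at 9.41, 6.29 and 7.01 FPKM with hemin against 5.21, 5.73 and 5.06 FPKM with vehicle, so reads of the 2 genes may be mixed.

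Hemin library 3 held the highest level of its group for Nr1d1, Nr1d2, Per1, Per2, Cry2 and Dbp, and hemin library 1 for Clock, Per3 and Cry1. By the pattern over the 6 libraries, the genes most like Nr1d1 were Dcxr, Cox18 and Strip2. Likeness was the root mean square difference between mean-centred log2(CPM + 1) values, which was 0.0686, 0.0886 and 0.0909 for these 3 among 12277 genes, as a description over libraries that share their depth and treatment. The nearest other member was Arntl, at rank 1571 with 0.39.

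Around the 10 members, a list of 12 other core loop genes held 6 that rose and 2 that fell among 11 tested. Over all genes tested, 16.2% were called higher and 15.7% lower. Its median log2 fold change was 1.45. The repressor Nfil3, the E-box repressor Ciart (also called Chrono), the ROR receptors Rora and Rorb, the CLOCK paralog Npas2 and the BMAL1 paralog Arntl2 rose, whereas the D-box activator Hlf and the replication fork factor Timeless fell. Bhlhe40, Bhlhe41 and Tef did not pass the test.

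**Figure D2:**
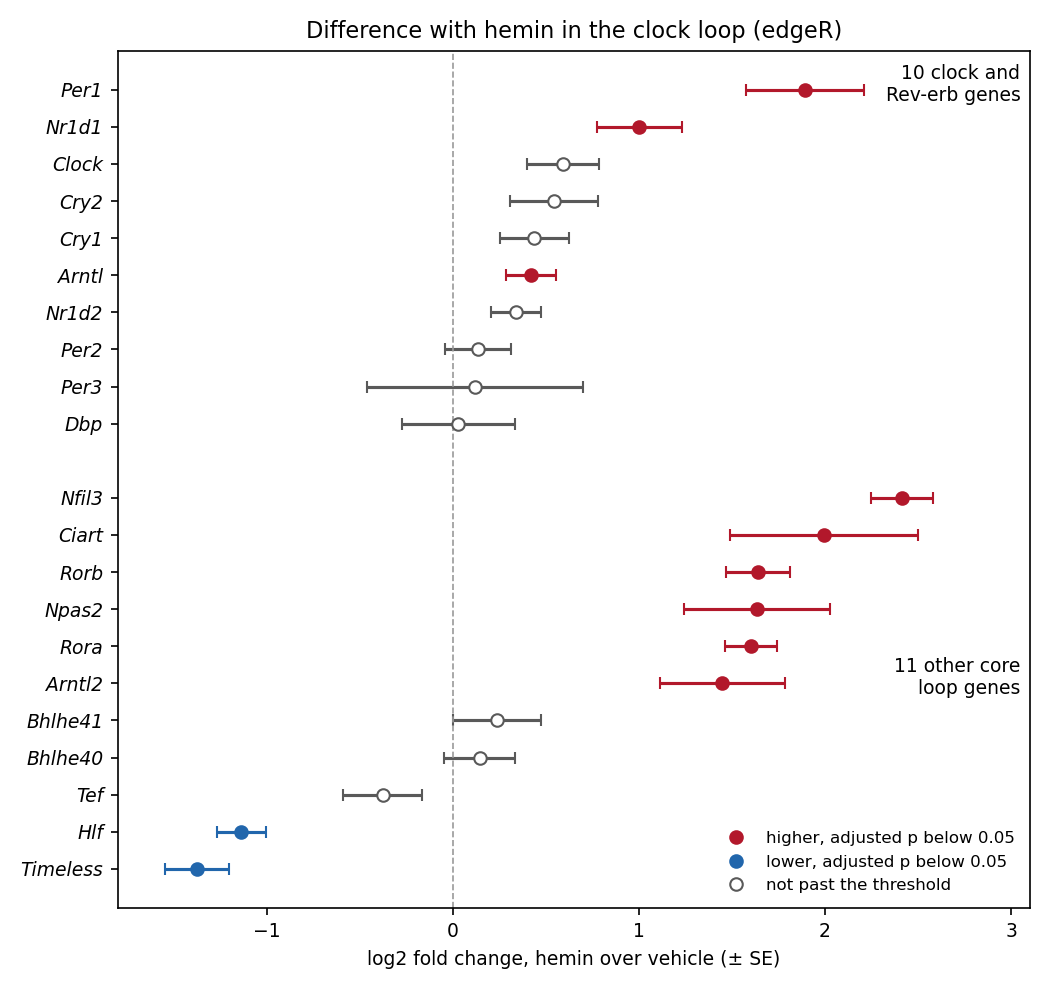
Log2 fold change of hemin over vehicle, with its standard error, for the 10 members and the 11 other core loop genes tested. Filled symbols passed the edgeR threshold. Nfil3 at 2.41 and Timeless at -1.37 are the ends of the range, and Per1 at 1.89 is the highest member.

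Nfil3, which represses at D-boxes and is itself repressed by Rev-erb, stood at 21.83, 17.51 and 17.59 FPKM with hemin against 3.75, 3.78 and 3.58 FPKM with vehicle. The vehicle libraries were within a narrow range, and the hemin libraries were all far above it. The log2 fold change was 2.41 ± 0.17, or 5.33-fold (SE, edgeR adjusted p = 0.0002). Set within a library, the log2 ratio of Dbp to Nfil3 was -3.58, -2.86 and -2.42 with hemin against -0.84, -0.29 and -0.67 with vehicle, a difference of -2.36 (exact permutation p = 0.1, adjusted p = 0.15).

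Rora and Rorb, which encode activators at the RORE, were higher. Rora stood at 4.09, 5.02 and 4.53 FPKM with hemin against 1.78, 1.61 and 2.02 FPKM with vehicle, 3.04-fold (edgeR adjusted p = 0.000464). Rorb stood at 10.43, 9.87 and 7.83 FPKM with hemin against 3.75, 3.08 and 2.81 FPKM with vehicle, 3.11-fold (edgeR adjusted p = 0.000927). In both genes the groups were far apart. By the authors' split, the longer Rorb transcript took 67.5% of its counts with hemin and 24.0% with vehicle, from 49.5 to 78.4% in single hemin libraries and from 0 to 45.2% in single vehicle libraries.

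Npas2, a heme-binding paralog of Clock, stood at 0.89, 0.70 and 0.81 FPKM with hemin against 0.37, 0.13 and 0.29 FPKM with vehicle, from 90 and 30 summed counts. Its log2 fold change was 1.63 ± 0.39 (SE, edgeR adjusted p = 0.0179), and on log2(FPKM + 1), which compresses low values, 0.51. Arntl2 stood at 2.39, 2.16 and 1.87 FPKM with hemin against 0.67, 1.21 and 0.58 FPKM with vehicle, a log2 fold change of 1.45 ± 0.34 (SE, edgeR adjusted p = 0.0155), or 0.80 on log2(FPKM + 1). For Arntl2 the call was lost without vehicle replicate 1 (edgeR adjusted p = 0.0609). The groups did not overlap for either gene, and both stayed below the mean level of their paralogs Clock and Arntl in each group. The log2 ratio of Clock to Npas2 averaged 3.45 ± 0.06 with hemin and 4.26 ± 0.55 with vehicle (SD, n = 3 each), a difference of -0.82 (exact permutation p = 0.1, adjusted p = 0.15) that shrank to -0.02 with FPKM + 1.

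Ciart, which binds BMAL1 and represses it at E-boxes, stood at 3.06, 4.77 and 9.60 FPKM with hemin against 1.39, 0.86 and 2.21 FPKM with vehicle. Hemin library 3 stood well above the other hemin libraries, and the groups did not overlap. The log2 fold change was 1.99 ± 0.50 (SE, edgeR adjusted p = 0.0214), or 1.37 on log2(FPKM + 1). The call was lost without hemin replicate 3, with a log2 fold change of 1.45 and an edgeR adjusted p of 0.0565, and without vehicle replicates 1 and 2 (0.0708 and 0.0676). Its window, on the minus strand at chr3:95882179-95882478, is shown because it holds more E-boxes than any member's, at 116, 58 and 44 bases before the start.
Ciart: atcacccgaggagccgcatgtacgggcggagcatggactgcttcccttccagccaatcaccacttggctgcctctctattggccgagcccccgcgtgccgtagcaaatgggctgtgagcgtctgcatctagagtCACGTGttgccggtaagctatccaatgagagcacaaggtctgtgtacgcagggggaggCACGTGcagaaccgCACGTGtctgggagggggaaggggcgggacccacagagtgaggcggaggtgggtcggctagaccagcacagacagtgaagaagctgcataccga
An E-box was in 7.15% of the 32851 windows, an E-prime box in 4.68%, a D-box in 3.38% and a cyclic AMP response element (CRE, TGACGTCA) in 1.79%. Both strands were read, and no matches of different motifs overlapped.

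**Figure D3:**
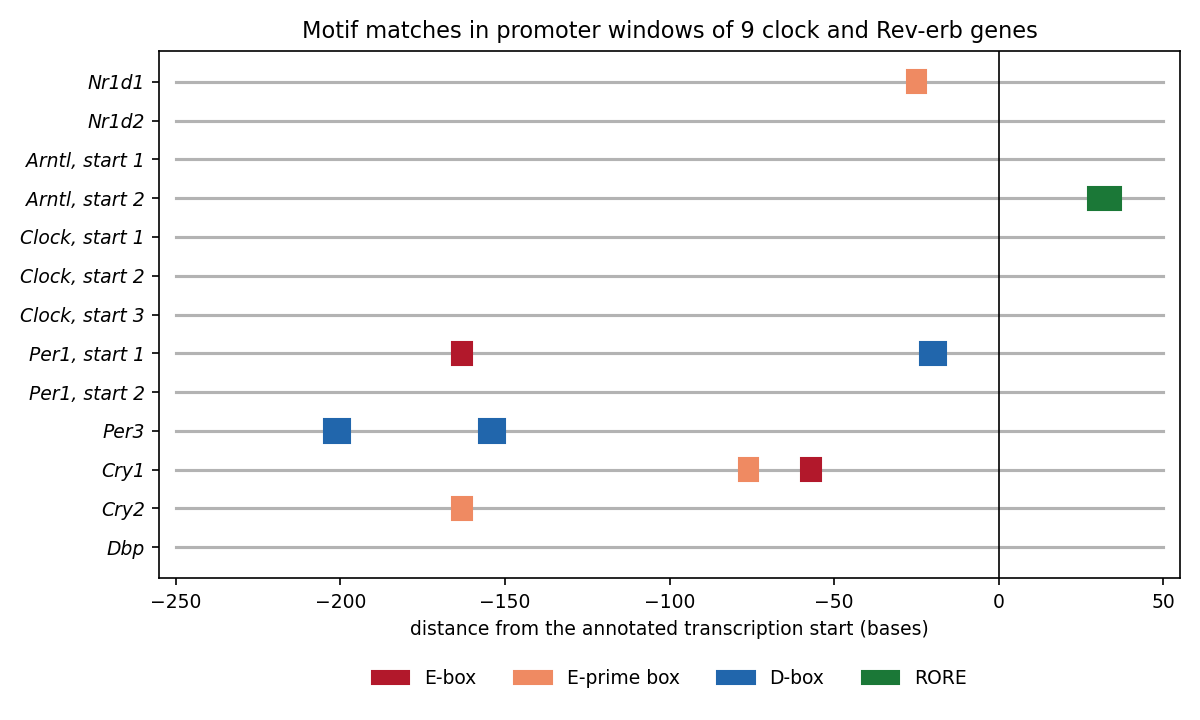
Distance from the annotated start, in bases, of each motif match in the 13 windows (grey lines) of the 9 members that have one, with the start at 0. Of these 9 members, 6 held a match. The RORE of Arntl, 28 bases after the start, is the single match downstream of a start.

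The plot of motif positions shows matches for genes whose levels differed between groups and for genes whose levels did not. Nr1d1, Per1 and Arntl among the called members had a match, and so did Per3, Cry1 and Cry2 among those not called. Of the 10 other core loop genes with a window, which the plot leaves out, 6 held a match, whereas Nfil3, Rora, Npas2 and Arntl2, which were higher, had none. No match says only that these letters are not in this stretch.

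The other PAR bZIP genes, which share the D-box with Dbp, were not higher. Hlf stood at 2.15, 2.27 and 2.61 FPKM with hemin against 5.14, 5.26 and 5.60 FPKM with vehicle, with no overlap and a log2 fold change of -1.14 ± 0.13 (SE, edgeR adjusted p = 0.00127). Tef stood at 17.04, 12.78 and 19.89 FPKM with hemin against 17.24, 22.02 and 27.53 FPKM with vehicle, with overlap and a log2 fold change of -0.38 ± 0.21 (SE, edgeR adjusted p = 0.219). Timeless, known in mammals chiefly for its part at replication forks, stood at 3.30, 3.86 and 5.38 FPKM with hemin against 11.38, 10.76 and 11.18 FPKM with vehicle. Its log2 fold change was -1.37 ± 0.17 (SE, edgeR adjusted p = 0.00165). The E-box repressors Bhlhe40 and Bhlhe41 had log2 fold changes of 0.14 ± 0.19 and 0.24 ± 0.24 (SE, edgeR adjusted p = 0.602 and 0.484).

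**Figure D4:**
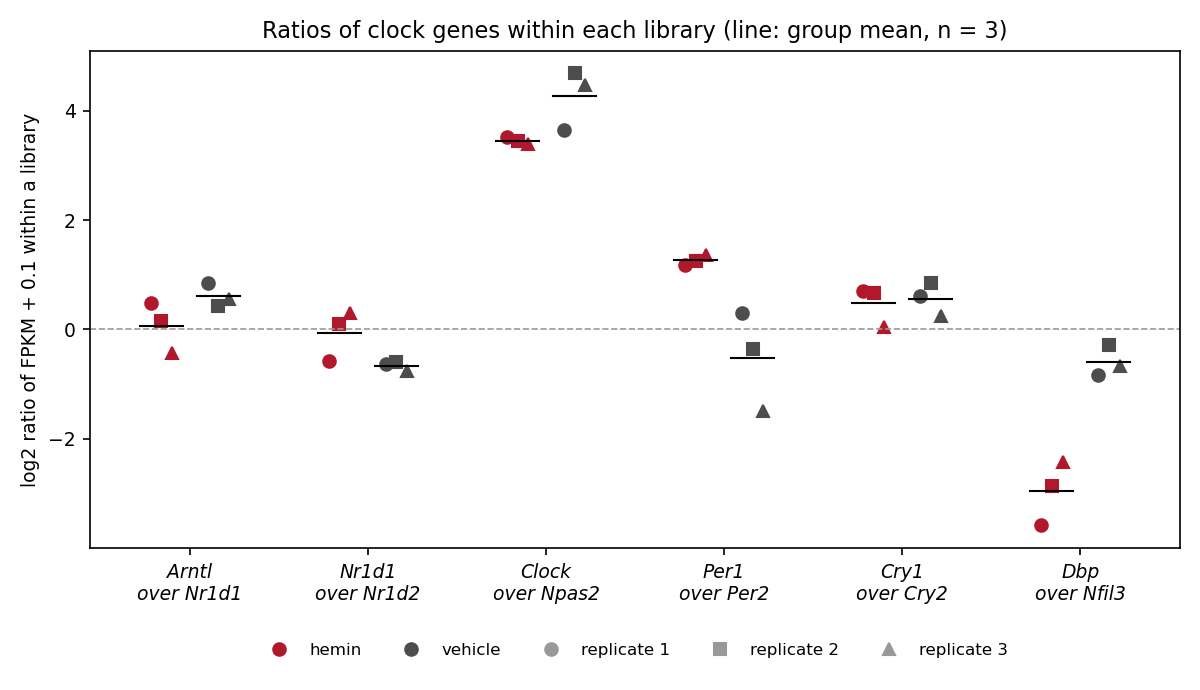
Log2 ratio of 2 clock genes within each library, on FPKM + 0.1, for 6 pairs in the 3 hemin and 3 vehicle libraries. The groups are apart for Nr1d1 over Nr1d2, Clock over Npas2, Per1 over Per2 and Dbp over Nfil3, each at the smallest p of 0.10 that the design allows, and overlap for Arntl over Nr1d1 and Cry1 over Cry2.

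The plot of within-library ratios depends on how libraries are scaled to each other only through the constant added to FPKM. That constant weighs most on genes of low level, such as Npas2. The log2 ratio of Nr1d1 to Nr1d2 averaged -0.06 ± 0.45 with hemin and -0.67 ± 0.08 with vehicle (SD, n = 3 each, exact permutation p = 0.1, adjusted p = 0.15). The ratio of Arntl to its repressor Nr1d1 was 0.49, 0.15 and -0.43 with hemin against 0.84, 0.44 and 0.56 with vehicle, with overlap and a difference of -0.54 (exact permutation p = 0.2, adjusted p = 0.24).

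Of 6 genes of the corepressor complex through which Rev-erb acts, none passed the test as higher and 2 fell, among them Tbl1xr1, a subunit of the complex. With 2 of 6 called, the list is near the 31.9% called over all genes tested, of which 15.7% were lower and 16.2% higher. The median log2 fold change was -0.25. Tbl1xr1 stood at 8.14, 7.97 and 8.55 FPKM with hemin against 13.06, 10.10 and 12.15 FPKM with vehicle, -0.47 ± 0.12 on the log2 scale (SE, edgeR adjusted p = 0.0206), and lost its call without hemin replicate 2 (0.0713) or without vehicle replicates 1 (0.0893) or 3 (0.0701). Its groups did not overlap. Hdac3, the deacetylase of the complex, had a log2 fold change of -0.19 ± 0.10 (SE, edgeR adjusted p = 0.169), and Tbl1x 0.17 ± 0.14 (SE, edgeR adjusted p = 0.374).

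Of 9 genes known from mouse studies as repressed by Rev-erb, 8 were tested, 5 rose, none fell and the median log2 fold change was 1.11. The shares over all genes tested were 16.2% higher and 15.7% lower. The list was written with results of these data known, and its Arntl, Clock, Npas2, Cry1 and Nfil3 are described above. Ccl2, a chemokine for monocytes, stood at 4.85, 4.43 and 6.43 FPKM with hemin against 0.99, 0 and 1.13 FPKM with vehicle, a log2 fold change of 2.91 ± 0.68 (SE, edgeR adjusted p = 0.0164), or 1.93 on log2(FPKM + 1). Ccl2 was low or absent with vehicle and present in every hemin library. Fabp7, a fatty acid binding protein of neural progenitors, stood at 2221.11, 3489.27 and 3359.49 FPKM with hemin against 3470.40, 4035.30 and 3192.87 FPKM with vehicle (edgeR adjusted p = 0.44). The cytokine Il6 had 10, 11 and 6 counts with hemin against 0, 0 and 1 with vehicle and was not tested.

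Among 15 genes known as clock outputs, 4 rose and 3 fell, with a median log2 fold change of 0.13. For all genes tested, 16.2% rose and 15.7% fell. Those that rose were Nr1d1, Per1 and Ciart, described above, and Nampt, the rate-limiting enzyme of NAD salvage. Nampt, named after its values were seen, stood at 19.96, 20.34 and 22.25 FPKM with hemin against 16.76, 15.47 and 14.47 FPKM with vehicle (edgeR adjusted p = 0.00835). Those that fell were Hlf, Alas1 and Wee1. Wee1, the kinase that holds cells before mitosis, stood at 7.59, 6.55 and 8.40 FPKM with hemin against 14.34, 13.29 and 14.31 FPKM with vehicle, a log2 fold change of -0.84 ± 0.13 (SE, edgeR adjusted p = 0.00326). Alas1, the first enzyme of heme synthesis, stood at 4.69, 4.40 and 5.49 FPKM with hemin against 11.28, 11.45 and 11.01 FPKM with vehicle, -1.16 ± 0.14 on the log2 scale (SE, edgeR adjusted p = 0.00131). The groups were apart for all 3 of these enzymes.

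The 12 kinases, ubiquitin ligases and a deubiquitinase that set the turnover of PER and CRY were all tested, and none was called by edgeR with TMM scaling of all 6 libraries, with a median log2 fold change of 0.26. At an unadjusted p below 0.05, 5 were higher and 1 was lower, where over all genes tested 43.6% passed, 21.7% as higher and 21.9% as lower. Other settings of edgeR called 1 with RLE factors, 1 with library totals alone, 1 with a replicate block, and 3, 1, 2 and 1 without hemin replicates 1 and 2 and vehicle replicates 2 and 3. DESeq2 called 2 and limma on log2(FPKM + 1) called 1. Usp2, a deubiquitinase whose own transcript is a clock output, stood at 3.71, 2.36 and 3.37 FPKM with hemin against 5.29, 4.77 and 4.98 FPKM with vehicle. It did not overlap between groups and was just short of the threshold (log2 fold change -0.62 ± 0.20, edgeR adjusted p = 0.0519), and 6 of 13 alternative settings called it. Fbxw11, a ligase for phosphorylated PER, stood at 26.80, 26.38 and 27.51 FPKM with hemin against 22.36, 20.15 and 24.52 FPKM with vehicle (0.32 ± 0.10, edgeR adjusted p = 0.0515). Csnk2b, the regulatory subunit of casein kinase 2, had 0.27 ± 0.10 (edgeR adjusted p = 0.0843).

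A list of 12 genes tied to signals known to induce Per1 and Per2 held targets of these signals as well as their parts. A rise on it therefore need not mean more of an inducing signal. Of its 11 tested genes, 5 rose, namely Crem, Sik1, Dusp1, Tsc22d3 and Fos, and 2 fell. The median log2 fold change was 0.51, and over all genes tested 16.2% rose and 15.7% fell. Fos, an immediate early gene that marks acute induction, stood at 23.28, 49.35 and 75.48 FPKM with hemin against 3.69, 3.17 and 3.52 FPKM with vehicle, 14.6-fold (edgeR adjusted p = 0.000901). Hemin library 1 had the least Fos, Per1, Nr1d1 and Ciart of its group and library 3 the most, which is a description of 3 libraries. The other genes of the list that rose did not share this order. Dusp1, Crem and Sik1 were highest in hemin library 1, and Tsc22d3 in hemin library 2. A link between these levels was not tested. Dusp1, a phosphatase of MAP kinases that glucocorticoids and stress induce, stood at 18.17, 16.36 and 14.07 FPKM with hemin against 4.61, 5.35 and 5.41 FPKM with vehicle, 3.29-fold higher (edgeR adjusted p = 0.000768). Crtc1, a CREB coactivator, stood at 3.55, 3.58 and 4.50 FPKM with hemin against 7.31, 7.98 and 8.68 FPKM with vehicle, a log2 fold change of -0.995 ± 0.136 (SE, edgeR adjusted p = 0.00229). The glucocorticoid targets on the list did not move one way, since Tsc22d3 rose (edgeR adjusted p = 0.0187) and Fkbp5 fell (edgeR adjusted p = 0.0148), both named after their values were seen. Rasd1 was not tested.

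A list of 7 heme-binding regulators and heme response genes held 4 that rose, namely Nr1d1, Npas2, Bach1 and Hmox1, and 1 that fell, Alas1. Its median log2 fold change was 0.99, and over all genes tested 16.2% rose and 15.7% fell. Bach1, the repressor of Hmox1 that heme releases from DNA, stood at 26.48, 16.07 and 16.92 FPKM with hemin against 9.23, 10.81 and 11.13 FPKM with vehicle, a log2 fold change of 0.99 ± 0.22 (SE, edgeR adjusted p = 0.0131). For Nr1d1, Npas2, Bach1 and Nr1d2, the last of which did not pass the test, every hemin library lay above every vehicle library, as for 24.1% of all genes tested. Eif2ak1, the heme-regulated kinase, was listed at 0 in hemin library 1 and in vehicle libraries 1 and 3, and did not pass the test (edgeR adjusted p = 0.985).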

How the data were processed

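RNA was measured in 3 hemin and 3 vehicle libraries, with groups taken from the titles. Per the submitters' processing notes, Bowtie 0.12.2 and RSEM were used, with mm8 and mm9 as builds of unstated role. The sources used here do not state the annotation release or strandedness. Per the file headers, the deposited tables of annotated transcripts hold expected counts, estimated by the authors and not scaled for depth, and FPKM, scaled by the authors for transcript length and library size. Unannotated features carry no gene identifier and were not used.

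Both measures were summed per gene, with unlisted transcripts at 0, and 18706 of 18753 identifiers matched a symbol (RefSeq gene table, GRCm38.p6). Rounded sums were tested in R 4.3.3 with edgeR 4.0.16 (filterByExpr by group, TMM, glmQLFit and glmQLFTest, two-sided, Benjamini-Hochberg over 12783 genes). The standard error is the log2 fold change divided by the square root of F. The biological coefficient of variation was 0.208. Total expected counts per library, 6339966 to 6523639, limit precision for genes with few counts. Alternatives were RLE factors, totals alone, no filter, a block on the replicate number, each library left out, DESeq2 1.42.0, and limma 3.58.1 on log2(FPKM + 1) and log2(FPKM + 0.1). The scripts were tested on simulated data. Within-library ratios were compared with two-sided exact permutation tests.

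The labels do not say if replicates are separate cultures or litters, so p-values measure the spread between these libraries, which may be technical. Members and gene lists were chosen with earlier results of these data known. Named genes are the members, the other core loop genes, per list the 3 tested genes with the smallest p and the 1 with the smallest p against the list's direction, the 3 most like Nr1d1 in pattern, and Hmox1. Nampt, Tsc22d3, Fkbp5, Crem, Sik1, Il6, Rasd1, Eif2ak1 and the single cell type markers fall outside this rule and were named after their values were seen. A few of the genes so chosen are not reported here. Promoter windows come from RefSeq on GRCm38.p6 and overlapping exons from GENCODE vM21.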

Additional observations from a re-analysis of the deposited data

How the results depend on the processing

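Over the 10 members and 13 alternative settings, 107 of the log2 fold changes kept direction and side of the threshold, 11 lost a call, 3 gained one and 9 turned sign, all 9 in Dbp or Per3. Dbp became -0.0555 with library totals alone, -0.0104 without a filter, -0.0232 and -0.0374 with limma on log2(FPKM + 1) and log2(FPKM + 0.1), and from -0.199 (without hemin replicate 3) to 0.238 with 1 library left out, with -0.0711 and -0.00904 without vehicle replicates 1 and 3. With 1 library left out, Per3 lay between -0.319 (without vehicle replicate 3) and 0.532, with -0.184 without hemin replicate 1, and Bhlhe40 between -0.00355 (without hemin replicate 1) and 0.297. The log2 ratio of Cry1 to Cry2 lay between -0.252 and 0.125 (without hemin replicate 3), with 0.0494 without vehicle replicate 2. The cause of these turns was not tested. Leaving out 1 library moved the 4076 calls over all genes to between 2552 and 4527 (2591 without vehicle replicate 1 and 2552 without vehicle replicate 2), the members called to between 1 (without vehicle replicate 1) and 3, corepressor genes to between 1 and 2, and the turnover genes of PER and CRY to between 0 and 3. Those turnover genes, none called with TMM scaling of all 6 libraries, had 1 called with RLE factors, 1 with library totals alone, 2 with DESeq2, 1 with each limma pseudocount and 1 with the replicate block. The labels do not say that a replicate number pairs libraries, so the main test was not paired. Deviations from the group means of libraries with the same replicate number had correlations of 0.0602, 0.119 and 0.167. Each hemin library correlated best with the vehicle library of its own number, and other pairs reached at most 0.0243, so pairing was not settled. The block gave 3730 calls over all genes and 2 called members, without Arntl (edgeR adjusted p = 0.0903). Depth limits the genes with few summed counts, such as Ccl2 (96 with hemin and 13 with vehicle), Npas2 (90 and 30), Ciart (201 and 52), Arntl2 (144 and 55) and Dbp (103 and 105).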
